A study of Mus musculus with 4 samples.

Results

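The 10 glycolysis and lactate genes described here are Hk1, Hk2, Pfkl, Pfkp, Aldoa, Aldoc, Pgk1, Pgam1, Ldha and Ldhb, out of 12393 genes measured in sorted mouse skin cells. They were chosen by name for their place in the pathway, with earlier results of these data known. Other measured genes of the pathway, Pfkm, Tpi1 and Pkm among them, are not part of the 10. All 10 were found among the probe sets with a gene symbol of their own, through 22 probe sets. Each gene is given by its probe set with the highest mean log2 signal over all arrays, with its other probe sets beside it. The study hybridised RNA from GFP-sorted cells of K14-GFP-actin mice, taken from back skin at postnatal day 49, a time at which the follicles are in telogen, to 4 Affymetrix arrays. RNA of all living GFP-expressing cells went on the 2 arrays of the total group, and RNA of their α6high CD34high subset, a sort meant to take bulge basal cells, went on the 2 arrays of the bulge group. Both groups carried the same reporter, driven by the keratin 14 promoter of basal keratinocytes, and the total sort still held the bulge cells. Having 2 arrays in a group limits the precision. Since no label ties the replicates to separate mice, the p-values here speak of the spread among these 4 samples, and that spread may be technical.

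Glycolysis turns glucose into pyruvate in the cytosol. Hexokinase traps glucose, phosphofructokinase commits it to the pathway, aldolase splits the sugar, and phosphoglycerate kinase and mutase act on the smaller acids that result, after which lactate dehydrogenase interconverts pyruvate and lactate. Most steps have isozymes coded by separate genes. Hair follicle stem cells are known for lactate dehydrogenase activity, and lactate production has been tied to the start of their growth phase, while the follicles sampled here were resting.

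All 10 genes lay above the background level on all 4 arrays, a log2 signal of 7.23 taken from olfactory, vomeronasal and taste receptor genes. None of the 10 passed the limma test at an adjusted p of 0.05, where 0 of 12393 genes (0% of those tested) passed, and none passed with an intensity trend in the variance, where 1.08% did (0.557% higher and 0.524% lower in the bulge group). The differences, always bulge minus total on the log2 scale, ran from -0.56 for Pfkl to 1.58 for Aldoc, with a median of -0.18 beside -0.02 over all genes tested. Groups did not overlap for 5 of the 10, beside 38.5% of all genes. Aldoc and Ldhb lay above both total arrays on both bulge arrays, 2 of the 10 beside 18.0% of all genes. Pfkp, Pgk1 and Ldha lay below, 3 of the 10 beside 20.5%. An unadjusted p under 0.05 was reached by 1 of the 10, Aldoc, beside 10.5% of all genes.

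**Figure D1:**
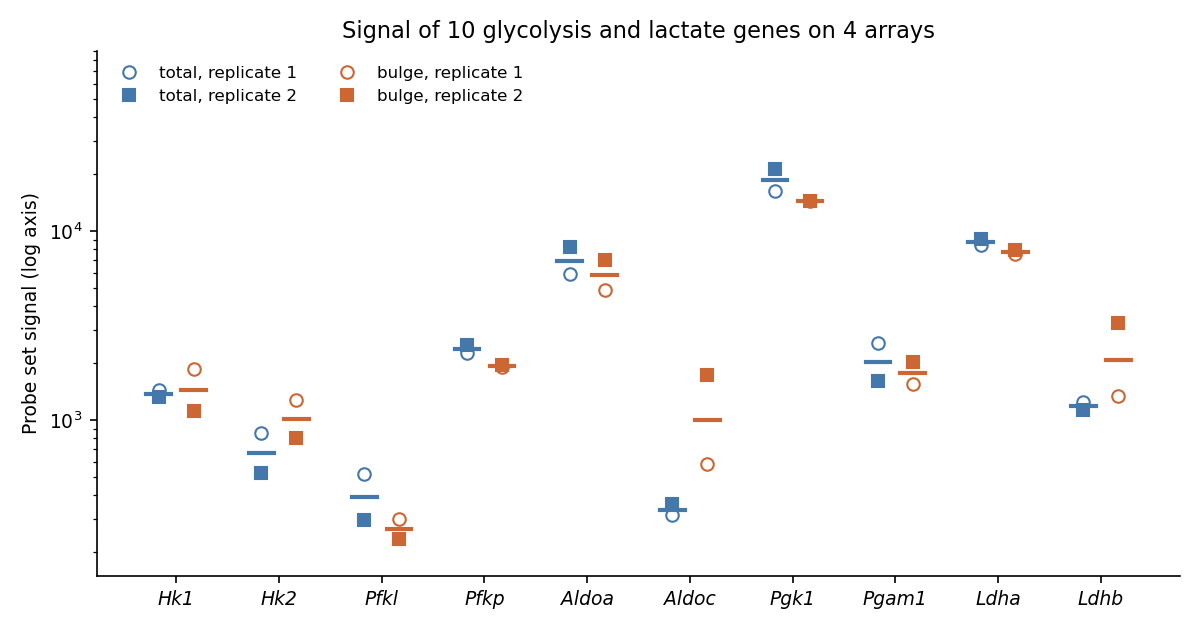
Probe set signal (log axis) of the 10 genes on each array, with total arrays in blue, bulge arrays in orange, open circles for replicate 1, filled squares for replicate 2, and bars for the group mean of log2 signal. Aldoc and Ldhb stand apart on bulge replicate 2, at 1733 and 3244, while Ldha and Pfkp hardly differ between replicates; levels of different genes rest on different probes and are not to be compared.

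The hexokinases, which phosphorylate glucose on entry, did not separate the groups. Hk1, the isozyme of most tissues, had signals of 1438 and 1316 in the total group and 1853 and 1120 in the bulge group. The bulge arrays lay on either side of the total arrays, and the difference was 0.07 ± 0.43 (SE), or -0.30 without bulge replicate 1 and -0.22 with the mean of both probe sets. Its other probe set had signals of 1.92 to 3.54 and so carried no usable level. Hk2, the isozyme induced by insulin and hypoxia, had signals of 850.3 and 522 in the total group and 1272 and 803 in the bulge group. Replicate 1 was the higher array in each group, and the groups overlapped. The Hk2 difference was 0.60 (95% interval -0.60 to 1.80), with an adjusted p of 0.813 in the limma fit, and it was 0.25 without total replicate 2 and 0.95 without total replicate 1.

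For phosphofructokinase, the committed step, both genes among the 10 had lower group means in the bulge group. Pfkm, a phosphofructokinase gene outside the 10, went the other way. Its signals were 519 and 606 in the total group and 724 and 611 in the bulge group, a difference of 0.25 without overlap. Pfkl, the liver-type subunit, had signals of 516 and 296 in the total group and 298 and 235 in the bulge group. The groups overlapped narrowly, since total replicate 2 lay just below bulge replicate 1. Its difference was -0.56 (95% interval -1.71 to 0.59), and it was -0.16 without total replicate 1 and -0.96 without total replicate 2. The other probe set gave -0.12, again with overlap. Pfkp, the platelet-type subunit, had signals of 2273 and 2481 in the total group and 1914 and 1958 in the bulge group. The replicates lay close together and the groups apart, with log2 means of 11.21 ± 0.09 (SD, n = 2) and 10.92 ± 0.02 (SD, n = 2). The difference of -0.29 amounts to 1.23-fold and had an adjusted p of 0.913 in the limma fit; its other probe set was below background on every array.

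Aldolase gave the widest contrast among the 10 genes. Aldoa, the isozyme of muscle and of most dividing cells, had signals of 5908 and 8233 in the total group and 4901 and 7043 in the bulge group. Replicate 2 was higher in each group and the groups overlapped, with a difference of -0.25 ± 0.43 (SE) that was 0.014 without bulge replicate 1. Its other 3 probe sets gave -0.34, -0.39 and -0.33. All 4 carry the suffix that marks probes able to match other sequences. The sets used for Pgk1 and Ldhb carry it too. Sets without it gave -0.69 for Pgk1, and 0.73 and 0.70 for Ldhb. Aldoc, the isozyme known from brain, had signals of 315 and 358 in the total group and 583 and 1733 in the bulge group. Both bulge arrays lay above both total arrays, but bulge replicate 2 was far the brighter of the pair. The Aldoc difference was 1.58 ± 0.61 (SE), 2.99-fold, with a 95% interval of 0.03 to 3.13. In the limma fit its p was 0.0466 before and 0.468 after adjustment, and 0.339 after adjustment with the intensity trend. It was 0.80 without bulge replicate 2 and 2.37 without bulge replicate 1. Its other probe set had signals of 40.0 to 49.5, below background, and gave 0.15, so that the mean of both was 0.87.

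Neither gene of the middle steps passed the test. Pgk1, which makes the first ATP of the pathway, had signals of 16317 and 21182 in the total group and 14345 and 14432 in the bulge group. Both bulge arrays lay below both total arrays, by 0.37 on the log2 scale or 1.29-fold, with a 95% interval of -1.34 to 0.60, an adjusted p of 0.883 in the limma fit and a value of -0.18 without total replicate 2. The other 2 Pgk1 probe sets gave -0.69 (SDs of 0.02 and 0.26 in the total and bulge groups, n = 2 each) and -0.76 (SDs of 0.17 and 0.11), likewise with no overlap of the groups, so the value used is the smallest in size of the 3. Pgam1, the mutase that follows, had signals of 2554 and 1606 in the total group and 1556 and 2036 in the bulge group. The total arrays spanned more than the groups differed, and the difference of -0.19 ± 0.44 (SE) turned to 0.15 without total replicate 1 and to 0.0079 without bulge replicate 1.

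Lactate dehydrogenase is a tetramer of A and B subunits, of which A-rich forms are associated with making lactate and B-rich forms with using it. Ldha, for the A subunit, had signals of 8395 and 9128 in the total group and 7522 and 7921 in the bulge group. All 4 arrays lay close together, with log2 means of 13.10 ± 0.09 (SD, n = 2) and 12.91 ± 0.05 (SD, n = 2), and the bulge arrays were the lower pair. The difference was -0.18 (95% interval -1.11 to 0.75) with an adjusted p of 0.951 in the limma fit, so the interval reaches from 0.462 to 1.68 times the total level. Ldhb, for the B subunit, had signals of 1245 and 1128 in the total group and 1338 and 3244 in the bulge group. Bulge replicate 1 lay just above the total arrays and bulge replicate 2 far above them. The difference was 0.81 (95% interval -0.55 to 2.18), 1.76-fold, with an adjusted p of 0.753; it was 0.17 without bulge replicate 2. The other 3 Ldhb probe sets gave 0.73, 0.57 and 0.70 and were each brightest on bulge replicate 2, with signals of 2926, 2257 and 1769 there, although the groups overlapped for 2 of them.

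**Figure D2:**
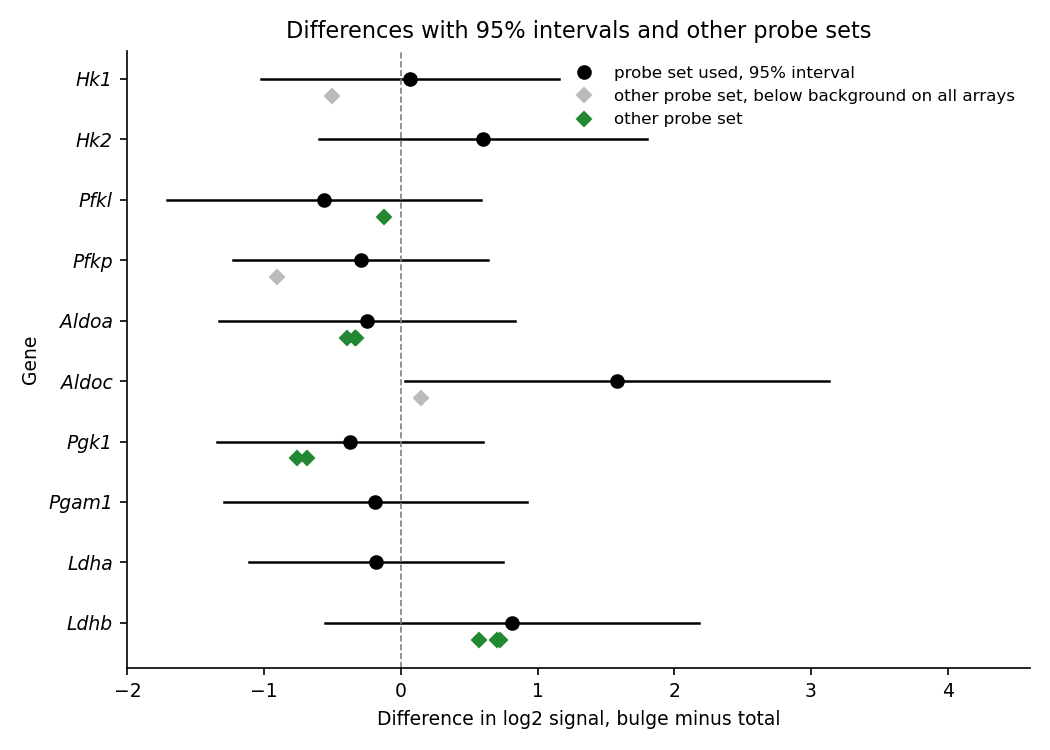
Difference in log2 signal, bulge minus total, for the probe set used of each gene (black, with the 95% interval of the limma fit) and for its other probe sets (green, or grey where below background on all arrays). The interval of Aldoc starts at 0.03 and every other interval spans 0; the 4 Ldhb probe sets lie between 0.57 and 0.81.

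The isozymes of a step were then compared by how far their ratio moved between groups, which sets no probe's level against another's. On the log2 scale the Aldoc to Aldoa ratio was 1.83 higher in the bulge group, with shifts of 1.30 and 2.35 on the bulge arrays against the total mean, and SDs of 0.21 and 0.74 in the total and bulge groups (n = 2 each). The Ldhb to Ldha ratio was 0.995 higher, with shifts of 0.39 and 1.60. The Hk2 to Hk1 ratio was 0.53 higher, and here the bulge arrays gave nearly the same shift, 0.50 and 0.57, while the total arrays differed by 0.29 either side of their mean; the ratio difference was 0.25 without total replicate 2 and 0.82 without total replicate 1. For these 3 ratios the bulge arrays lay above the total arrays, which gives an exact two-sided permutation p of 0.333, the smallest that 2 against 2 arrays allow. The Pfkp to Pfkl ratio differed by 0.27 with overlapping groups (exact permutation p of 1), and it turned to -0.26 with the mean of all probe sets and -0.20 without total replicate 1. The mean of all probe sets takes in sets of Pfkp and Aldoc that were below background on every array. With that mean the Aldoc to Aldoa ratio was 1.19 higher in the bulge group.

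**Figure D3:**
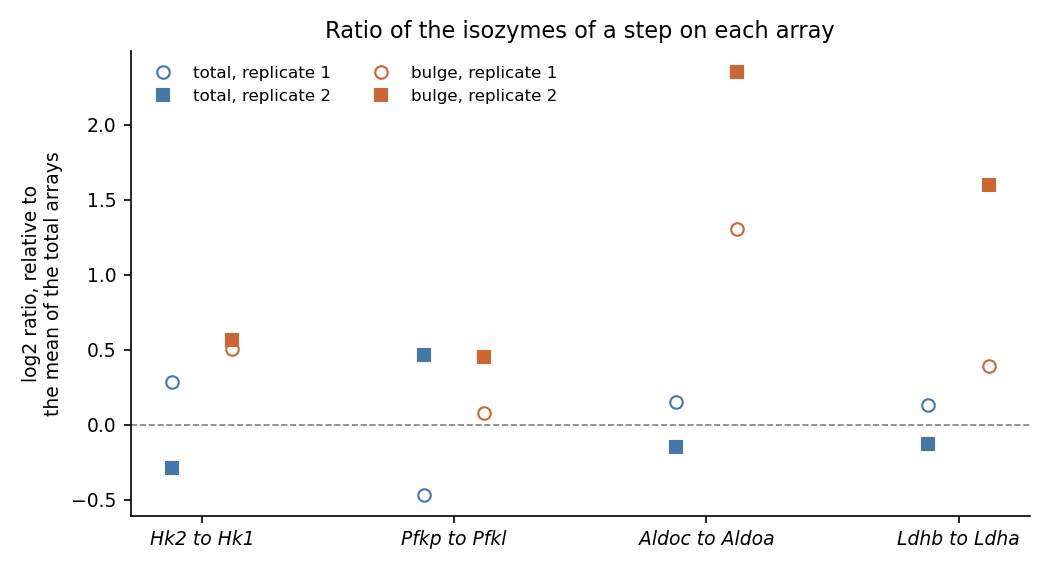
Log2 ratio of the isozymes of a step on each array, relative to the mean of the total arrays (0), with total arrays in blue and bulge arrays in orange. The bulge arrays lie above the total arrays for the hexokinase, aldolase and lactate dehydrogenase ratios and overlap with them for phosphofructokinase; on bulge replicate 2 the aldolase shift is 2.35 and the lactate dehydrogenase shift 1.60.

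The bulge arrays differed from each other in which enzymes stood high. From bulge replicate 1 to replicate 2 the log2 signal differed by 1.57 for Aldoc and 1.28 for Ldhb, by -0.73 for Hk1 and -0.66 for Hk2, and by 0.01 for Pgk1, 0.03 for Pfkp and 0.07 for Ldha. The median size of this gap was 0.46 over the 10 genes and 0.60 over all genes, beside 0.28 and 0.41 between the total arrays. Triose phosphate isomerase, Tpi1, was like Ldhb brightest on bulge replicate 2, with signals of 1984 and 2547 in the total group and 1946 and 5505 in the bulge group. Unlike Ldhb, its bulge replicate 1 lay below both total arrays. The same gap was 0.14 for Pkm, -0.10 for Bpgm, -0.25 for Pfkm, 0.33 for Eno3 and 0.26 for Pklr, the other glycolytic enzyme genes above background in a group. The Tpi1 probe set also carries the suffix for probes able to match other sequences. Gapdh, the next enzyme, had no probe set of its own apart from the array's control sets and was taken up after its values were seen: its 3′ control set read 4181 and 6093 in the total group and 3514 and 8225 in the bulge group. On the same arrays the ratio of the 3′ to the 5′ control set, a sign of RNA length, was 10.3 for Gapdh and 10.9 for Actb on bulge replicate 2, beside 12.2 to 17.1 and 5.14 to 7.96 on the other 3 arrays. The part of RNA length in these gaps was not tested.

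**Figure D4:**
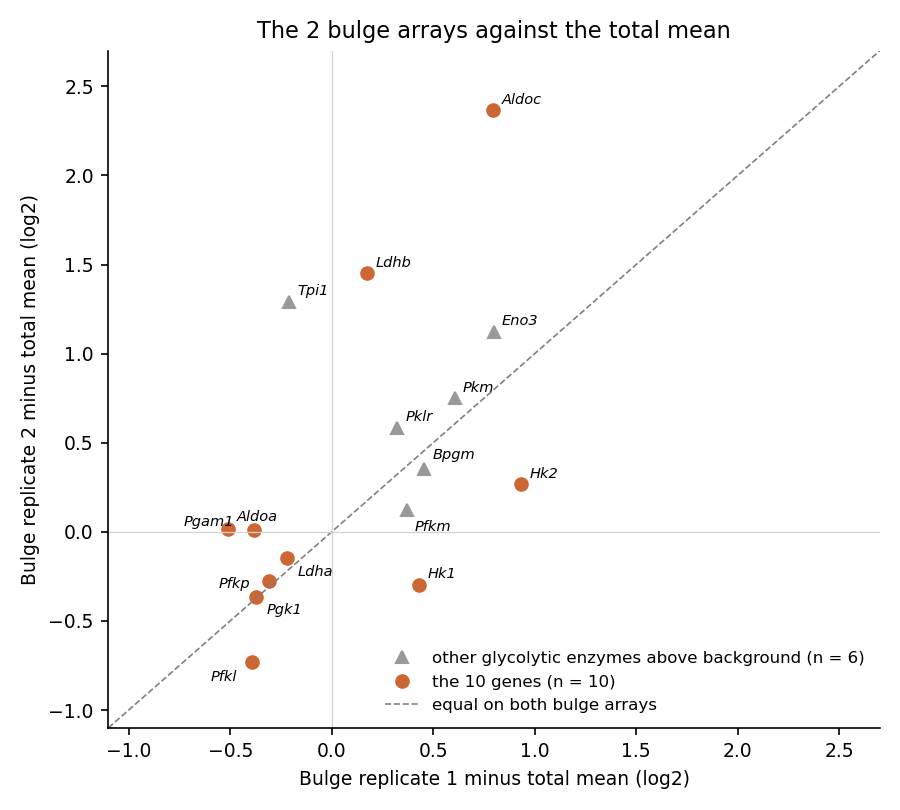
Log2 signal of each bulge array minus the mean of the total arrays, for the 10 genes (orange circles) and for the 6 other glycolytic enzyme genes above background in a group (grey triangles); the dashed line marks equal values on both arrays. Aldoc, Ldhb and Tpi1 lie far above the line and Hk1 and Hk2 below it, while Pgk1, Pfkp and Ldha lie near it and below 0.

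By a fixed measure, the Euclidean distance between the 4 array values after each gene's mean was removed, the genes nearest to Ldha among 5780 genes above background on all arrays were Cnbp, Rragc and Vcp, at distances of 0.0105, 0.0278 and 0.0331 and with differences of -0.18, -0.21 and -0.21. Those nearest to Ldhb were Sap30, Ckb and Tcea1, at distances of 0.112, 0.134 and 0.177. These 3 had differences of 0.85, 0.69 and 0.96 and were, like Ldhb, brightest on bulge replicate 2. With 4 arrays many genes share any such profile, and the distances are a description only.

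Proximal promoters are shown for the 5 genes whose bulge arrays lay apart from the total arrays, Aldoc and Ldhb above and Pfkp, Pgk1 and Ldha below, because hypoxia-inducible factor is a textbook regulator of this pathway. The sequences are RefSeq's for GRCm38.p6, 250 bases up to the most upstream transcript start listed, 5′ to 3′ on the gene's strand. Capitals mark ACGTG or GCGTG on either strand, the core of the hypoxia response element.
Aldoc, chr11:78322823-78323072, plus strand: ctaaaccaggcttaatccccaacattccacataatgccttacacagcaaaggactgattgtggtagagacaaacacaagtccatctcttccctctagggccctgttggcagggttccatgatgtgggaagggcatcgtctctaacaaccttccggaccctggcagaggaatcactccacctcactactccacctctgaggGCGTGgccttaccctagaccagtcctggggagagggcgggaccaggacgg
Ldhb, chr6:142507958-142508207, minus strand: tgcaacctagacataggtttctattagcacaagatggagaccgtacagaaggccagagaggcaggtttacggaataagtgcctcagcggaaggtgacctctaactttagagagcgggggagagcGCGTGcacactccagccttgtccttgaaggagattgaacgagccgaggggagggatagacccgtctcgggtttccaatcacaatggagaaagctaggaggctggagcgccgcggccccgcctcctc
Pfkp, chr13:6648772-6649021, minus strand: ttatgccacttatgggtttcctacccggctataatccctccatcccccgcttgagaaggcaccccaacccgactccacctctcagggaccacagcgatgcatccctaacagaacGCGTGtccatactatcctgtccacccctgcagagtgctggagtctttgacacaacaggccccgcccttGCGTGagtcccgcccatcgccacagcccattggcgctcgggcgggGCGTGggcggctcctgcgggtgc
Pgk1, chrX:106186850-106187099, plus strand: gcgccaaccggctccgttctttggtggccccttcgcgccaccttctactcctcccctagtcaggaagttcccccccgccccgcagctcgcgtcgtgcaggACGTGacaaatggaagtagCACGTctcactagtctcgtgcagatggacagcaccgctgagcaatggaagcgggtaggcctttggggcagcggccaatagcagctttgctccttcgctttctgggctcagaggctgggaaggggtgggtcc
Ldha, chr7:46845554-46845803, plus strand: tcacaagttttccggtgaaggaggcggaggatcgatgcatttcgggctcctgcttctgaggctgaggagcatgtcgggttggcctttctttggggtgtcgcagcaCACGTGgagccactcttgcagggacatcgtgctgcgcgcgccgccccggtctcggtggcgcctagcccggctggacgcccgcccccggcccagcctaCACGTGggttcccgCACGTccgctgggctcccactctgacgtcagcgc
The cores stood at 1 position in Aldoc, 1 in Ldhb, 3 in Pfkp, 2 in Pgk1 and 5 in Ldha; the palindrome CACGTG, an E-box that counts as 2 overlapping cores, occurred at 2 places in Ldha. All 10 genes were matched in the promoter table, and 8 of them held a core in this window beside 38.6% of 27026 promoters cut the same way. Taking any listed start, 10 of the 10 did, beside 41.5% of genes. The windows of the 10 genes had 49.6% to 69.6% G and C, beside a median of 52.0% over all promoters. A match describes letters and no binding.

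The rest of the pathway was read from lists of named genes. Of 13 other glycolytic enzyme genes measured, 0 passed in either direction in either fit, 9 differences were above 0 and 4 below, and the median was 0.45; only 6 were above background in a group. Of these, Eno3 and Pklr were so through the bulge group alone, which fixes the direction of both. Pkm, for the pyruvate kinase of most tissues, had signals of 740 and 805 in the total group and 1174 and 1298 in the bulge group. The arrays of each group lay close together and the groups apart, by 0.68 (95% interval -0.26 to 1.62), with an adjusted p of 0.665 in the limma fit. Eno3, an enolase known from muscle, was below background on both total arrays and read 242 and 303 on the bulge arrays. The bulge group mean was 1.81 times the background level. The fitted Eno3 difference had a 95% interval of 0.0009 to 1.92, with an adjusted p of 0.478 in the limma fit. Of 14 skeletal muscle markers, 1 was above background on any array, Casq1 on bulge replicate 1, at a signal of 162. The part of muscle RNA in the Eno3 values was not tested.

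Genes for glucose uptake, lactate transport and pyruvate entry had a median of -0.07 over 23 measured, 14 above background in a group, and 0 passed in either fit. Slc2a1, the main glucose transporter of epidermis and chosen for that role after its values were seen, had signals of 2218 and 2336 in the total group and 1613 and 1755 in the bulge group, a difference of -0.44 ± 0.37 (SE). The lactate transporter genes Slc16a1 and Slc16a7 were each above background on 1 array, Slc16a1 on total replicate 1 at 256 and Slc16a7 on bulge replicate 2 at 219. Their fitted differences of -1.33 and 2.74 rest on values below background and are no measure of size. Emb, an accessory protein of these transporters, had signals of 1892 and 1203 in the total group and 4991 and 2315 in the bulge group, or 1.17 ± 0.54 (SE) higher there, at an adjusted p of 0.572 in the limma fit. Pdha1, a subunit of the complex that takes pyruvate into the citric acid cycle, had a difference of 0.20 with overlapping groups. Genes of its other subunits, taken up after their values were seen, went the other way. Pdhb differed by -0.51 and Dlat by -0.93, each with both bulge arrays below both total arrays. Dld differed by -0.61 with overlapping groups, and its bulge replicate 2 was below background.

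Regulators of glycolysis did not pass either: 0 of 10 measured genes were called in either fit. The median was -0.07, but only 4 of the 10 were above background in a group, Hif1a, Myc, Mlxip and Txnip, and these had a median of -0.59. Hif1a, the oxygen-regulated factor, had signals of 4121 and 2479 in the total group and 3094 and 985 in the bulge group. The groups overlapped, with a difference of -0.87, and bulge replicate 2 held the lowest Hif1a signal of the 4. Myc, another activator of glycolytic genes, had signals of 356 and 594 in the total group and 251 and 271 in the bulge group, a difference of -0.82 (95% interval -1.91 to 0.28). Txnip, which restrains glucose uptake, had a difference of -0.36, and Mlxip, for a glucose-sensing factor, one of 0.44. Hypoxia response targets outside glycolysis moved apart from one another, with differences from -1.89 to 2.05 over 22 genes, a median of -0.01 and 0 called in either fit. Ndrg1, a stress-induced gene, had signals of 3273 and 2557 in the total group and 14210 and 10082 in the bulge group, a gap of 2.05 ± 0.41 (SE) and no overlap. Its adjusted p was 0.151 in the limma fit and 0.0837 with the trend. Car12, a carbonic anhydrase gene, had signals of 654 and 571 in the total group and 221 and 122 in the bulge group. Its bulge replicate 2 was below background, so its -1.89, the lowest value of the list, is not a measured size. Ddit4, an inhibitor of mTOR signalling, differed by -1.56.

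Side routes of glucose carbon and the citric acid cycle gave small medians, and 0 members passed in either fit. The pentose phosphate pathway had a median of -0.11 over 9 genes, with Tkt, its transketolase, at -0.63, the dehydrogenase gene Pgd at -0.59 and Rpia at -0.49. Gluconeogenesis and glycogen genes had a median of 0.11 over 18, of which 8 were above background in a group. Among these the glycogen synthase gene Gys1 had a difference of 0.81 with total replicate 1 below background, the phosphorylase gene Pygl 0.62 and Ugp2 -0.43. G6pc3 was above background through the bulge group alone, which fixes its direction. Its bulge group mean was 1.49 times the background level, and its adjusted p in the limma fit was 0.436. The tricarboxylic acid cycle had a median of -0.04 over 19 genes, all above background in a group. Cs, the citrate synthase gene, was at -0.63, Fh1 at -0.69, Mdh2 at -0.24 and Sdhb at 0.69, the last again brightest on bulge replicate 2, at 3720. At an unadjusted p under 0.05 in the limma fit, 2 other glycolytic enzyme genes were higher and 0 lower, 1 and 0 of the uptake and transport genes, 1 and 0 of the regulators, 3 and 2 of the hypoxia targets, 1 and 0 of the gluconeogenesis and glycogen genes, and 0 of the remaining lists. Over all genes the share was 10.5%, 642 higher and 655 lower. Of the genes counted as higher, Eno2, Mlxipl and Hmox1 were below background on all 4 arrays. Eno3, Slc16a7 and G6pc3 were below it on both total arrays. For these genes the count gives no measured size. Ndrg1 and Ak4, the other hypoxia targets counted as higher, were above background on all 4 arrays. So was Bhlhe40, which with Car12 was counted as lower. Its signals were 774 and 2164 in the total group and 418 and 306 in the bulge group, a difference of -1.85.

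**Figure D5:**
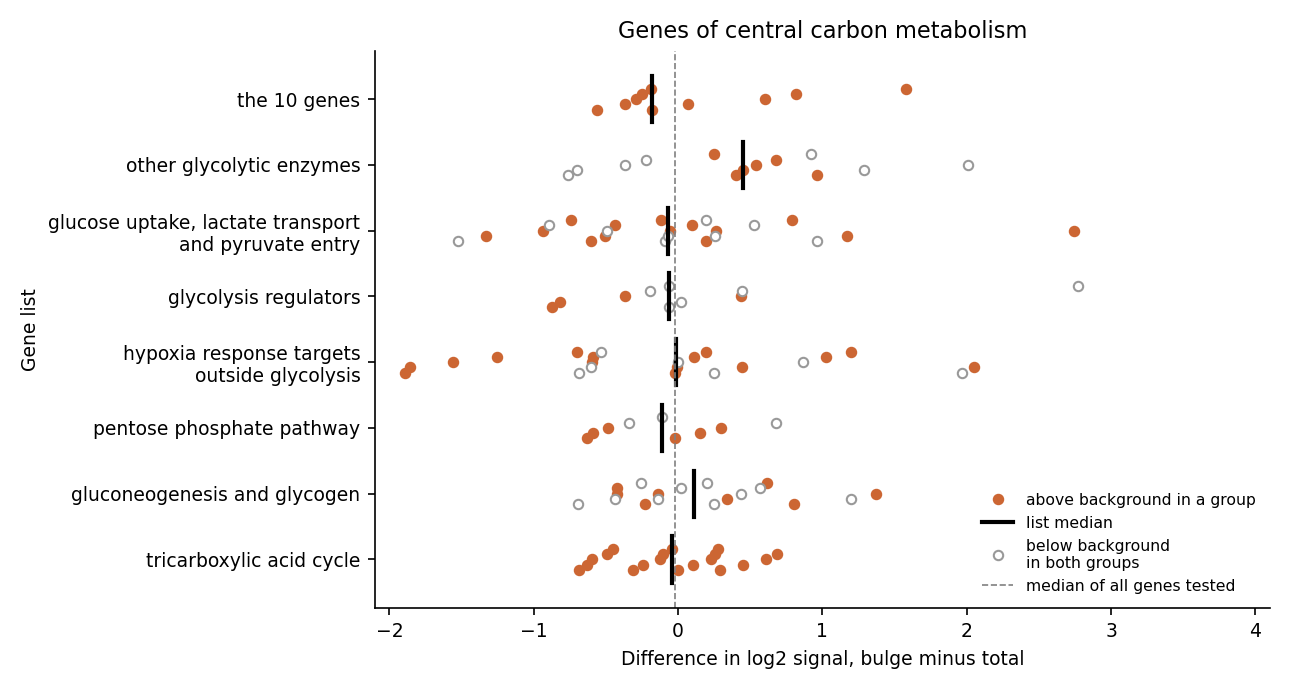
Difference in log2 signal, bulge minus total, of each measured gene in 8 lists; filled points are above background in at least 1 group, open points below it in both, black bars are list medians and the dashed line is the median of all genes tested (-0.02). The 10 genes center at -0.18 and the other glycolytic enzymes at 0.45, and none of the points passed the test. The median of 0.45 is the value of Pklr, which was above background on 1 bulge array and on no total array.

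The gate was checked on its own genes. Cd34 differed by 3.92 and passed in the trended fit, whereas Itga6, for the α6 integrin of the gate, differed by -0.91 and Krt14 by -0.30 without passing; 9 of 9 gate and basal keratinocyte genes were above background on every array. Other cells moved with the groups. Lower on both bulge arrays were 8 of 8 T cell markers and 11 of 13 Langerhans cell and macrophage markers. The share over all genes, for these and the counts below, was 20.5%. Total against bulge, the T cell markers summed to 1958 and 3524 against 306 and 493. The Langerhans cell and macrophage markers summed to 14365 and 15238 against 4493 and 4598. Of the T cell markers, 5 and 7 were above background in the total group and 0 and 1 in the bulge group. Of the melanocyte markers, 5 of 6 were lower on both bulge arrays, while Mitf was 6.35-fold higher. Their summed signals were 2721 and 2023 in the total group and 7015 and 3250 in the bulge group. Of the sebocyte markers 3 of 6 were lower, with sums of 4857 and 3150 against 1240 and 2659. Of the fibroblast markers 4 of 7 were lower, Thy1 of the T cell list among them, while the collagen gene Col1a2 was 7.79-fold higher. Only 3 of these 7 were above background in a group, with a median of 0.99. The fibroblast markers summed to 1578 and 2002 against 4466 and 2058. None of the melanocyte, sebocyte and fibroblast lists held a called gene in either fit. Suprabasal keratinocyte markers summed to 42748 and 62852 in the total group and 22732 and 62767 in the bulge group, so replicate 2 was the higher array in each group. Of the 8 suprabasal markers measured, 3 were lower and 1 higher on both bulge arrays, and 4 overlapped. Krt1, a keratin of early differentiation, at -3.31 and Notch3, a Notch receptor gene, at -2.83 passed as lower in the trended fit. Their adjusted p-values there were 0.0297 and 0.0381, and 0.524% of all genes passed as lower. Other suprabasal markers did not follow, with Krt10 at -0.47, Lor at 0.69, Flg at 0.22 and Dsc1 at 0.74. In bulk RNA fewer cells of a type and less RNA per cell cannot be told apart, and the part of these cells in the values of the 10 genes was not tested.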

How the data were processed

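The authors deposited 1 intensity per probe set and array, on a linear scale. Values ran from 0.0546 to 40835, and the mean of each array was 500.0 once 2% at each end was trimmed. Per the submitters' processing notes the tools were RMA, affy 1.36, R 2.15.1 and GCOS, in no stated role; such scaling is not a property of RMA output, and which tool made the values is not given in the sources used here. Amplification started from 200 ng of RNA with an oligo-dT T7 primer, per the labels' protocols. The design assumed log2 values, so log2 was taken of the deposited intensity.

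Gene symbols came from the platform annotation, updated by Entrez ID with RefSeq's GRCm38.p6 table. Of 22690, 20380 had 1 symbol (20351 matched), 691 had several, 1555 had none and 64 were controls. The background level is the 95th percentile of 67 olfactory, vomeronasal and taste receptor genes. Groups were compared with lmFit and eBayes of limma 3.58.1 under R 4.3.3, two-sided, Benjamini-Hochberg over 12393 genes. The code was run on simulated data with independent noise of the same spread for every gene. That run cannot speak for spread that depends on intensity or for arrays that deviate together. The 10 genes and all lists were chosen with earlier results of these data known. The genes named from other lists were those called, the 2 brightest and the 2 with the largest difference among genes above background in a group; Cd34, Itga6 and Krt14 check the gate, and 3 nearest genes were named for Ldha and Ldhb. Isozyme ratios were tested by exact permutation (scipy 1.17.1). Alternatives were array centring, quantile normalization, robust and trended variance, a filter on dim genes, an offset of 32, the mean of all probe sets, a threshold of 0.01, a replicate block and each array left out.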

Additional observations from a re-analysis of the deposited data

How the results depend on the processing

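The count of called genes was 0 in the test as reported, with 1297 genes at an unadjusted p under 0.05. It was 134 with an intensity trend, 222 without dim genes, 37 with the offset and 917 with the replicate block and the trend together; it was 0 under the other settings, each array left out among them. Same-numbered arrays deviated together (r = 0.579 between the replicate differences of the groups, over genes above background), but no label says that a number pairs samples. With the replicate block and the trend Aldoc was called (difference 1.58, adjusted p of 0.0162), and under no other setting was any of the 10 genes called; over the others the smallest adjusted p was 0.181, for the fit without bulge replicate 1. Hk1 turned to -0.22 and the Pfkp to Pfkl contrast to -0.26 with the mean of all probe sets, which takes in sets of Hk1 and Pfkp below background on every array.

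With each array left out in turn, Hk1 ranged from -0.30 to 0.43, Aldoa from -0.51 to 0.014, Pgam1 from -0.52 to 0.15, Aldoc from 0.80 to 2.37, Ldhb from 0.17 to 1.45 and the Pfkp to Pfkl contrast from -0.20 to 0.73. Hk2 ranged from 0.25 to 0.95, Pfkl from -0.96 to -0.16, Pgk1 from -0.56 to -0.18, Ldha from -0.24 to -0.12, Pfkp from -0.36 to -0.23 and the Hk2 to Hk1 contrast from 0.25 to 0.82. List medians ranged from -0.26 to -0.015 for the 10 genes, -0.27 to 0.059 for glycolysis regulators, 0.29 to 0.72 for other glycolytic enzymes, -0.31 to 0.079 for glucose uptake, lactate transport and pyruvate entry, -0.30 to 0.11 for hypoxia targets, -0.37 to -0.060 for the pentose phosphate pathway, -0.076 to 0.16 for gluconeogenesis and glycogen, -0.23 to 0.19 for the tricarboxylic acid cycle and -0.11 to 0.044 for all genes. The regulator median was 0.10 with the mean of all probe sets and 0.015 after quantile normalization. The uptake and transport median was 0.0060 after quantile normalization and -0.22 with the mean of all probe sets, where the hypoxia median was -0.29. The gluconeogenesis and glycogen median was 0.16 after quantile normalization, 0.0068 with the offset and 0.032 with the mean of all probe sets. The causes were not tested.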
